A study of Drosophila melanogaster with 36 samples.

Results

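The nuclear genes for subunits of the mitochondrial respiratory chain and ATP synthase were followed over the day in the LNv, the clock neurons of the Drosophila melanogaster brain that make the neuropeptide Pdf. The genes were chosen by symbol: names that start with ND-, UQCR or ATPsyn, or with COX followed by a digit, together with SdhA to SdhD, RFeSP and Cyt-c1. Of 86 such genes in the deposited table, 72 had a mean of at least 1 TPM (transcripts per 1000000 in a library) over the 36 libraries, out of 8649 genes at that level. They comprised 34 genes of complex I, 4 of complex II, 9 of complex III, 12 of complex IV and 13 of complex V.

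The chain passes electrons from NADH through complex I, or from succinate through complex II, to ubiquinone, then through complex III and cytochrome c to oxygen at complex IV. Complexes I, III and IV pump protons as they do so, and complex V, the ATP synthase, uses the proton gradient to make ATP. Complex II is encoded wholly in the nucleus, whereas the other 4 also hold subunits encoded in mitochondrial DNA, so their assembly draws on both genomes. Neurons depend on this pathway for most of the ATP spent on ion pumping.

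The libraries came from LNv sorted by fluorescence from dissected brains of female flies of the w1118 background. All 3 conditions used Pdf>mGFP flies, in which Pdf regulatory sequence drives a GFP reporter in the LNv, and the labels otherwise give the genotype as WT. HC25 flies were raised at 25 °C on food with 1.5x sucrose-yeast (SY), LC25 flies at 25 °C on 0.5x SY, and HC18 flies at 18 °C on 1.5x SY. Brains were taken every 2 h, at ZT02 through ZT24 (zeitgeber time, counted from lights on), which gives 12 libraries per condition and 1 at each time. The age of the flies and the number of flies per library were not given in the sources used here, so the p-values speak only for the spread among these 36 libraries, which may be technical. RNA was amplified by in vitro transcription before sequencing. The depth of the libraries is unknown, because TPM keep no read counts.

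Pdf was high in every library, from 7.68% to 30.1% of TPM, and the summed level of haemocyte markers stayed at or below 4.55 TPM. Several libraries stood apart. The HC25 library of ZT06 had the lowest Pdf share and, with the HC25 library of ZT08, summed glial markers of 690 and 1176 TPM against at most 94.0 TPM elsewhere. The HC18 libraries of ZT06, ZT08, ZT10 and ZT22 had 121 to 1603 TPM of the transcript fmt, against 18790 to 84165 TPM in the other 8 HC18 libraries. The LC25 library of ZT18 held 1027 TPM of photoreceptor markers, against at most 140.2 TPM in every other library. Muscle, a tissue rich in respiratory chain transcripts, left summed marker levels of only 4.36 to 33.2 TPM in any library.

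Almost all of these genes were strongly expressed. The 64 genes with a mean of 50 TPM or more ranged from 56.2 TPM for ND-18 to 1330 TPM for ATPsynC, which encodes the proton-carrying c ring of ATP synthase. The other 8 lay between 1.39 and 3.35 TPM, with no gene in between. All but ND-B8 of these 8 carry the L suffix that marks a second, paralogous copy. COX7AL, just inside the threshold, had a mean of 1.39 TPM, and ATPsynbetaL, just outside, 0.85 TPM. The mean of COX5BL rested on the HC25 library of ZT06, where it reached 51.2 TPM; its median was 0 and it was above 0 in 11 of 36 libraries.

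In complexes I and III, median levels differed by the role of the subunit. Among complex I genes, the 7 nuclear-encoded core subunits, conserved from bacteria and mostly carriers of the flavin or iron-sulfur clusters, had mean TPM from 71.9 to 181, with a median of 126. The 26 accessory subunits had a median of 208 TPM and overlapped the core, from 56.2 TPM for ND-18 to 1014 TPM for ND-AGGG. In complex III the 4 small subunits had a median of 460.0 TPM, against 163 TPM for the 2 core proteins UQCR-C1 and UQCR-C2. The nuclear subunits of complex IV, which surround a catalytic core made in the mitochondrion, had the highest median of any complex, 743 TPM over 8 genes. In both complexes the more abundant class had the shorter transcripts: the median longest annotated transcript was 1282 nt for the complex I core and 754 nt for its accessory subunits. TPM already divide by length, and whether amplification lowered the level of long transcripts was not tested.

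The set as a whole was highest late at night. Summed over the 72 genes, the share of all TPM averaged 1.69% ± 0.07 (SD over the 3 conditions) at ZT14, its lowest, and 2.94% ± 0.08 at ZT22, its highest. The sum at ZT14 was 1.77% in HC25, 1.64% in LC25 and 1.65% in HC18. At ZT22 it was 3.01%, 2.96% and 2.85%, so the ratios of ZT22 to ZT14 were 1.70, 1.80 and 1.72. The 3 values at each of these times lay closer together than the gap between the times. A second, smaller high point at ZT10 was seen in HC25 (2.63%) and HC18 (2.75%) but not in LC25 (1.77%).

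Every complex took part. The ratio of summed TPM at ZT22 to that at ZT14 was 1.57, 1.78 and 1.57 for complex I in HC25, LC25 and HC18. For complex II the ratios were 1.72, 1.83 and 1.71, for complex III 1.62, 1.77 and 1.66, for complex IV 1.73, 2.06 and 1.65, and for complex V 1.88, 1.60 and 2.04. The 13 subunit genes of the mitochondrial genome had ratios of 1.08, 0.90 and 0.71 for their summed share. Gene by gene, the ZT22 library was above the ZT14 library for 63 of the 64 strongly expressed genes in HC25, 62 in LC25 and 61 in HC18. Among all 8649 genes the same was true of 47%, 36.5% and 61.6%. These times were picked as the extremes of the summed profile, so the ratios are a description without a test.

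**Figure D1:**
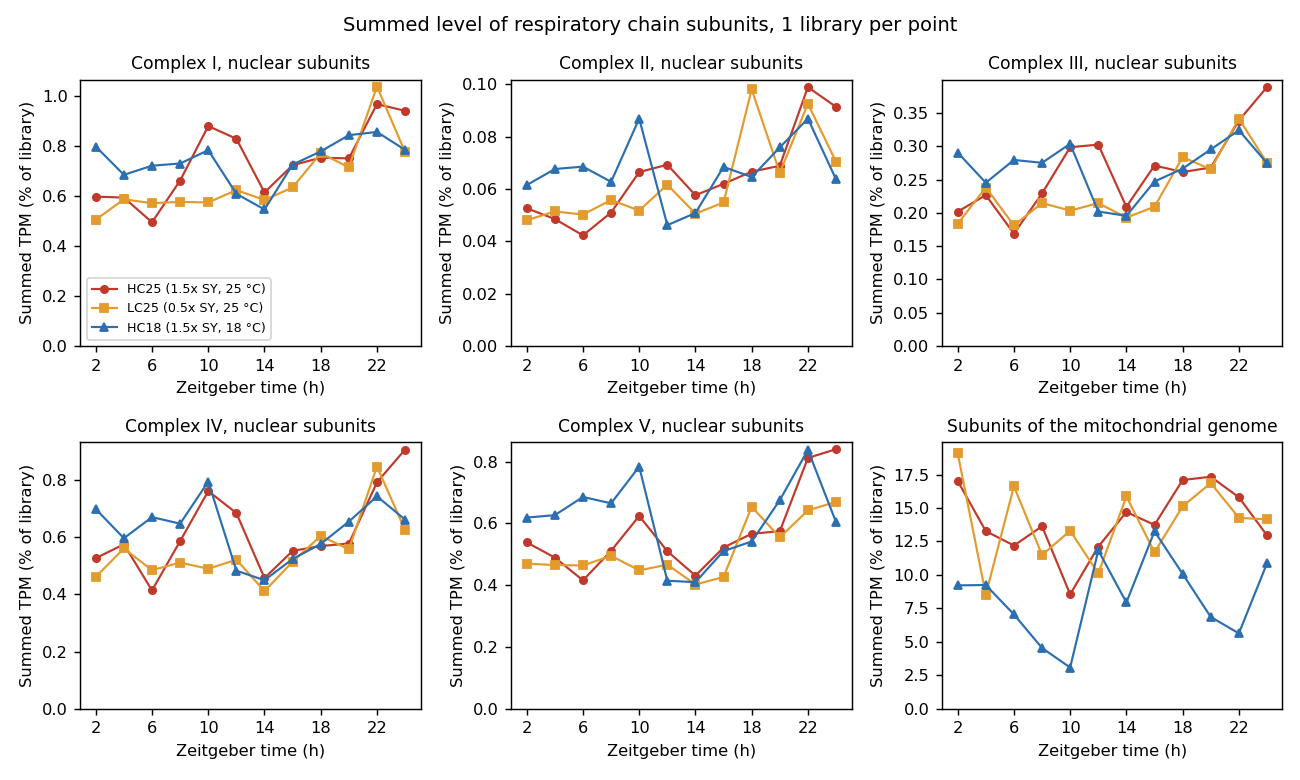
Summed TPM of the nuclear subunit genes of each complex, and of the 13 subunit genes of the mitochondrial genome (bottom right), as percent of the library (vertical axis, from 0) against zeitgeber time. Each point is 1 library; in the 5 nuclear panels the ZT22 points lie above the ZT14 points in every condition, while the lowest HC25 points are at ZT06, and the mitochondrial panel shows HC18 below HC25 at every time.

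The highest library of a gene was most often that of ZT22 or ZT24. This held for 52 of 64 genes in HC25, 48 in LC25 and 26 in HC18, where 24 genes had their highest value at ZT10 instead (21.5% of all genes). Of all genes in HC25, 11.6% were highest at ZT22 and 10.1% at ZT24. Those shares were 9.04% and 3.39% in LC25, and larger in HC18, at 19.5% and 9.08%. Of the mean over conditions, 58 of 64 genes were highest at ZT22 or ZT24, against 20.1% of all genes. The lowest values were less uniform. The HC25 minimum fell in the ZT06 library for 42 genes, as it did for 51% of all genes. The median of all genes there was -0.65 (log2, from each gene's mean over the 36 libraries), against -0.56 for the subunits. The LC25 minimum was at ZT02 for 22 genes (13.7% of all genes). The HC18 minimum was at ZT12 for 34 and ZT14 for 21 genes, together 55 of 64, against 18.8% of all genes.

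A 24 h cosine common to the 3 conditions was then fitted to every gene in limma, with Benjamini-Hochberg adjustment over all 8649 genes and a threshold of 0.05. It was called for 24 of the 72 genes (33.3%), against 23.9% of all genes. A larger share of the 72 was called after rescaling by the median ratio, where 1891 of all 8649 genes were called. The group also differed in the time of the peak. Of the 24, 22 peaked between ZT18 and ZT24, against 420 of the 2065 called among all genes. As shares of the genes tested, that was 22 of 72 against 4.86% of all genes. The other 2, COX6B and ATPsynC, peaked between ZT0 and ZT6, where 230 of the 2065 did (2.66% of all genes). None peaked between ZT6 and ZT12 (456 of the 2065, 5.27% of all genes) or between ZT12 and ZT18 (959, 11.1%), the commonest peak time. The median amplitude over the 72 genes was 0.21 (log2, mean to peak), close to the 0.20 of all genes. When the cosine was replaced by the 12 time points as a factor, 18 genes were called (25%), against 10.9% of all genes, and 10 of them were also called by the cosine.

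In complex I, 11 of 34 genes were called. ND-MNLL, a small accessory subunit, ranged from 122 TPM (median 197, highest 347) in HC25, from 118 TPM (median 167, highest 358) in LC25 and from 103 TPM (median 182, highest 275) in HC18. Its maxima were at ZT24, ZT22 and ZT22, and its fitted rhythm spanned 1.71-fold from trough to peak, at ZT20.8 (amplitude 0.39 ± 0.08 SE, limma adjusted p = 0.0017). ND-MWFE, an accessory membrane subunit, had medians of 272, 207 and 220.3 TPM in HC25, LC25 and HC18, with maxima of 367, 373 and 370.0 TPM. Its peak fell at ZT21.8, with a 1.54-fold span (limma adjusted p = 0.0023). ND-49, a core subunit that lines the ubiquinone site, was earlier and flatter, with a 1.36-fold span and a peak at ZT18.4 (limma adjusted p = 0.0023). ND-AGGG, the most abundant gene of the complex, was not called (amplitude 0.19 ± 0.08, limma adjusted p = 0.16).

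Complex II had 3 of its 4 genes called. SdhB, the iron-sulfur subunit, had the widest values. They ran from 60.9 TPM at ZT06 to 263 TPM at ZT22 in HC25 (median 128), from 65.8 TPM at ZT06 to 236 TPM at ZT18 in LC25 (median 119), and from 74.6 TPM at ZT12 to 247 TPM at ZT22 in HC18 (median 144). The fitted span was 1.72-fold with a peak at ZT20.5 (limma adjusted p = 0.02). SdhD, one of the membrane anchors, spanned 1.53-fold with a peak at ZT19.8 (limma adjusted p = 0.0093). The flavoprotein SdhA spanned 1.33-fold with a peak at ZT21.4 (limma adjusted p = 0.013). SdhC, the other anchor, had its maximum at ZT22 in both 25 °C conditions and was not called (limma adjusted p = 0.45).

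In complex III only Cyt-c1 and UQCR-11 were called among 9 genes. Cyt-c1, the haem protein that hands electrons to cytochrome c, ran from 171 to 252 TPM in HC25 (median 214), 164 to 287 TPM in LC25 (median 189) and 124 to 264 TPM in HC18 (median 188). It spanned 1.32-fold with a peak at ZT20.9 (limma adjusted p = 0.023). UQCR-11, a small subunit, spanned 1.34-fold with a peak at ZT18.8 (limma adjusted p = 0.03). UQCR-14, with a fitted span of 1.33-fold, did not pass (limma adjusted p = 0.072).

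Complex IV had 2 of 12 genes called, of which COX5B had the smallest adjusted p of the 72. COX5B, which binds zinc on the matrix side, ran from 352 TPM at ZT14 to 700 TPM at ZT24 in HC25 (median 442), from 310.4 TPM at ZT14 to 640.1 TPM at ZT22 in LC25 (median 381) and from 279 TPM at ZT12 to 524 TPM at ZT24 in HC18 (median 380.1). The fitted span was 1.48-fold with a peak at ZT22.6 (limma adjusted p = 0.00062). COX6B, which faces the intermembrane space, ran from 702 to 1599 TPM in HC25, 571 to 1513 TPM in LC25 and 556 to 1157 TPM in HC18. Its fitted peak was the later one, at ZT1.1, with a 1.50-fold span (limma adjusted p = 0.003). COX7A, the most abundant gene of the complex, was nearly flat, with a fitted span of 1.10-fold (limma adjusted p = 0.67).

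In complex V, 6 of 13 genes were called. ATPsynC ran from 921 TPM at ZT14 to 2181 TPM at ZT24 in HC25 (median 1241), from 819 TPM at ZT16 to 1707 TPM at ZT24 in LC25 (median 1237) and from 798 TPM at ZT14 to 2296 TPM at ZT22 in HC18 (median 1313). It spanned 1.50-fold and had the latest peak of all called genes, ZT2.0 (limma adjusted p = 0.024). In the peripheral stalk, which holds the catalytic head still, ATPsynCF6 spanned 1.45-fold with a peak at ZT23.1 (limma adjusted p = 0.0053). ATPsynD, in the same stalk, spanned 1.46-fold with a peak at ZT22.3 (limma adjusted p = 0.019). ATPsynF, a small membrane subunit, spanned 1.43-fold with a peak at ZT22.4 (limma adjusted p = 0.0062). The catalytic ATPsynbeta passed narrowly, with a 1.33-fold span and a peak at ZT20.9 (limma adjusted p = 0.042).

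The mean fitted peak varied by complex, by an amount that depended on the scaling. Over the 64 strongly expressed genes, the circular mean peak was ZT20.3 for complex I, ZT20.5 for complex II, ZT21.2 for complex III, ZT22.8 for complex V and ZT23.5 for complex IV. After the libraries were rescaled by the median ratio, the order was kept except that complex II came before complex I. The same calculation then gave ZT22.5, ZT22.3, ZT23.0, ZT0.1 and ZT0.8. With quantile normalization it gave ZT21.3, ZT21.2, ZT21.6, ZT22.7 and ZT22.8, all less than 2 h apart. The differences between complexes were not tested, and neighbours in this order lay less than the sampling step of 2 h apart.

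**Figure D2:**
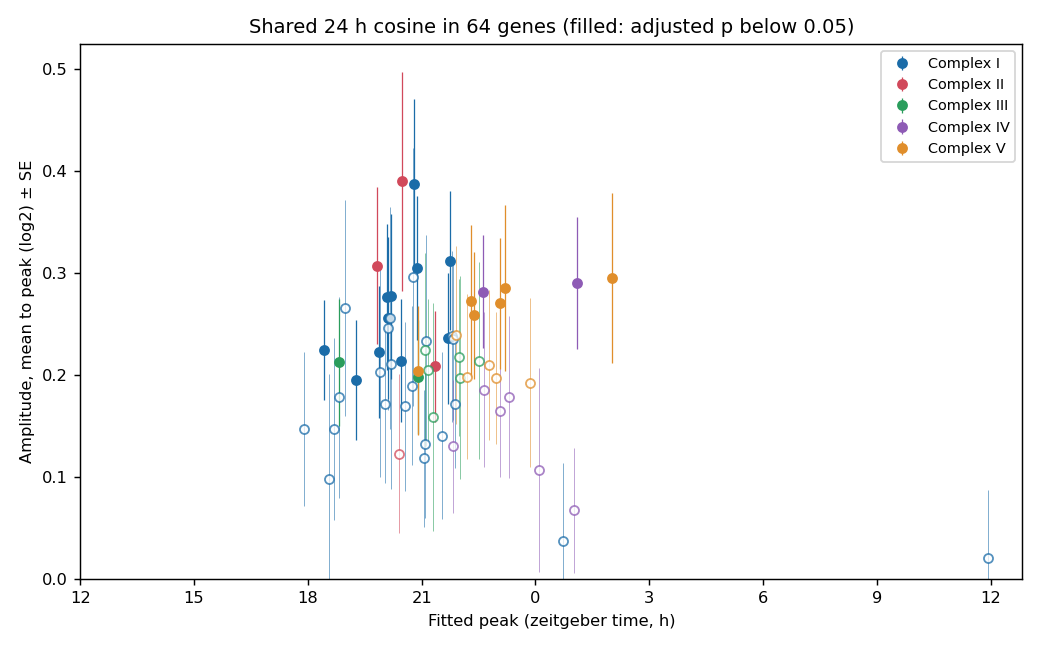
Amplitude of the shared 24 h cosine (vertical axis, log2 mean to peak, bars are SE) against the fitted peak time for the 64 genes with a mean of 50 TPM or more, coloured by complex. Filled points are the 24 genes past the adjusted p threshold. On average, complexes IV and V lie to the right of complexes I and II, with overlap between single genes.

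The genes also moved together from library to library. On log2 values less the mean of the condition, the correlation of each gene with the mean of the other 63 over the 36 libraries had a median of 0.84 and reached 0.96 for ATPsynD. For 1748 other nuclear genes of 50 TPM or more, the median correlation with the mean of the 64 genes was 0.26, and 17 of them exceeded the median of the subunits. The 13 genes of the mitochondrial genome all had correlations below 0, from -0.53 to -0.03. All points share the library, its scale and its TPM total, so these values describe the libraries and are not a test.

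A few genes broke the pattern. ND-MLRQ had the lowest correlation, -0.06; its mammalian counterpart NDUFA4 is now assigned to complex IV. It was followed by UQCR-11 (0.17), ND-AGGG (0.26), ATPsynbeta (0.33) and ND-49 (0.36). In the HC18 library of ZT10, where 24 genes had their highest HC18 value, 7 had their lowest. These were ND-AGGG, ND-MLRQ, ND-B17.2, ND-MWFE, ND-49, UQCR-6.4 and UQCR-11. ND-MLRQ was there at 231 TPM against an HC18 median of 602 TPM, and ND-AGGG at 534 TPM against 1045 TPM. That library was also one of the 4 low in fmt and had the lowest mitochondrial share, 3.08%; the part of these in the split was not tested.

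**Figure D3:**
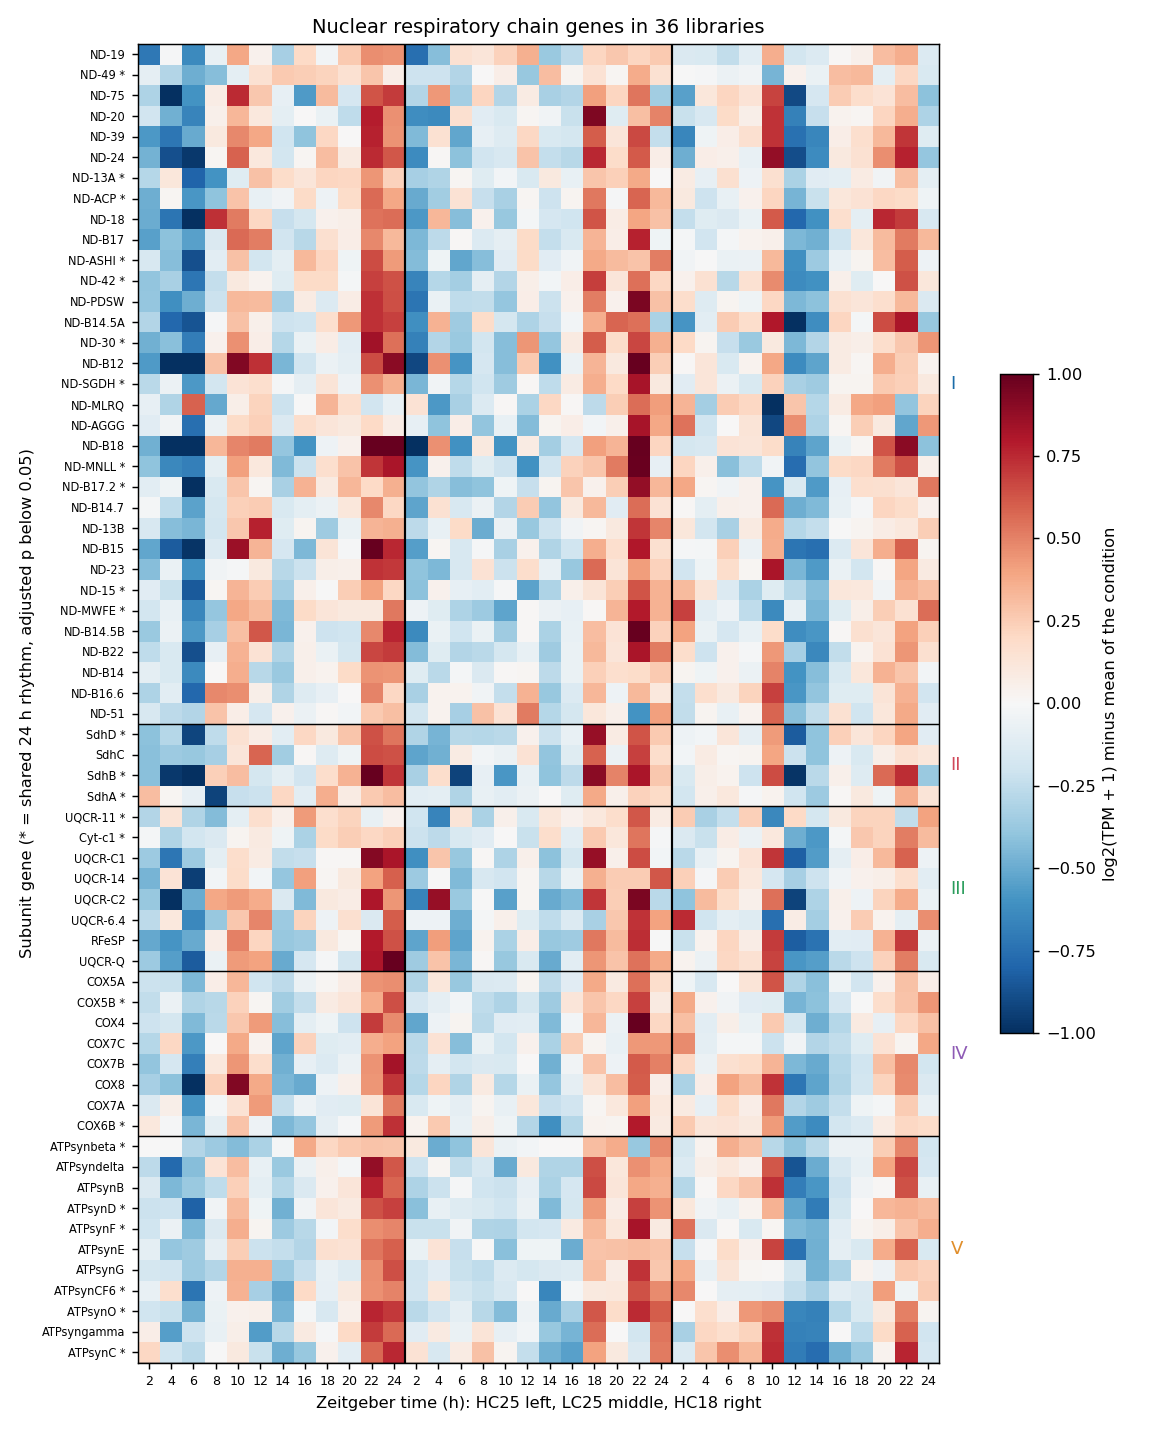
Each row is 1 of 64 genes and each column 1 of 36 libraries, by zeitgeber time within HC25 (left), LC25 (middle) and HC18 (right); colour is log2(TPM + 1) less the mean of the condition, from blue (low) to red (high), and rows are grouped by complex. The columns of ZT22 are red in each condition, those of ZT06 in HC25 and of ZT12 and ZT14 in HC18 are blue, and ND-MLRQ and ND-AGGG run against the others in the HC18 column of ZT10.

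The rhythm calls leaned on the libraries of the end of the night. Without the ZT22 libraries of all conditions, 10 of the 72 genes were called, and without those of ZT22 and ZT24, 3 were called (ND-49, UQCR-11 and COX6B). The share of all genes called was then 22.9% and 20%. Leaving out other adjacent pairs gave 9 calls (ZT18 and ZT20), 15 (ZT14 and ZT16), 19 (ZT06 and ZT08), 28 (ZT02 and ZT04) and 41 (ZT10 and ZT12). Of all genes, 15%, 15.8%, 22.8%, 17.5% and 22.5% were called in these settings, in that order. With every single time point left out in turn, ND-B17.2, ND-MWFE, ND-MNLL, ND-49, COX5B and ATPsynCF6 were called all 12 times. With single libraries left out in turn, the number of calls lay between 17, without the LC25 library of ZT22, and 31, without the HC25 library of ZT10. These settings were chosen after the data were seen, apart from the single libraries.

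**Figure D4:**
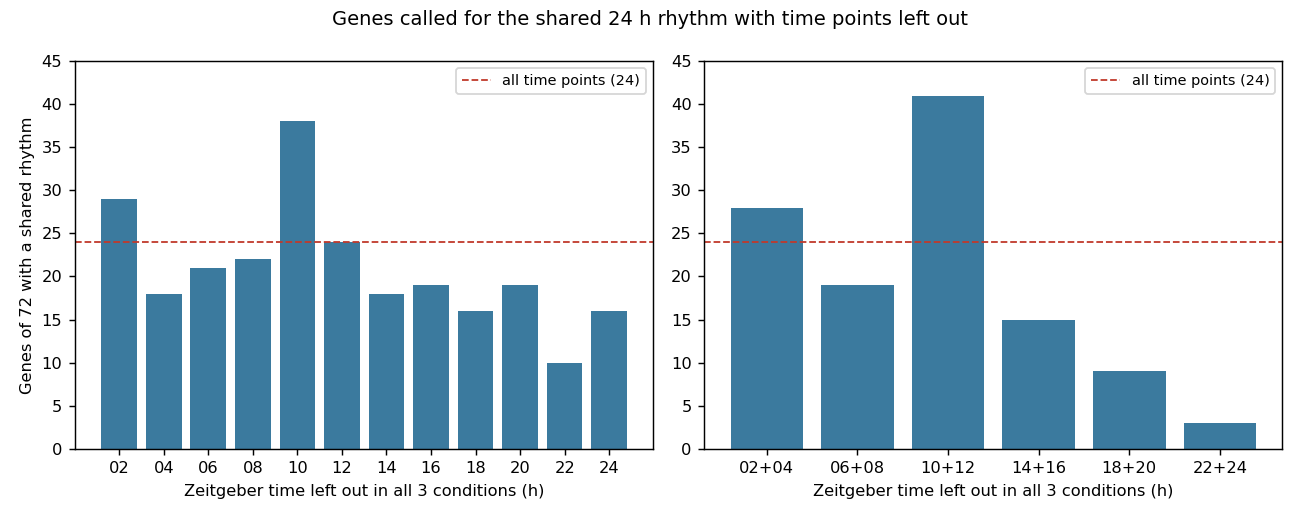
Number of the 72 genes called for the shared 24 h rhythm (vertical axis) when the libraries of 1 time point (left) or of 2 adjacent time points (right) were left out in all 3 conditions; the dashed line is the 24 genes called with all libraries. The lowest bar is that of ZT22 and ZT24 (3 genes) and the highest that of ZT10 and ZT12 (41 genes).

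In the authors' deposited table of BooteJTK rhythm scores over all libraries, 66 of the 72 genes were listed and 23 of them passed an adjusted p of 0.05, against 23.1% of the genes listed. In the authors' deposited table, 19 of these 23 had a phase from ZT18 to before ZT24, against 534 of the 1817 genes that passed. As shares of the genes listed, that was 19 of 66 against 6.79%. In the authors' deposited table for the 25 °C libraries, 13 of 68 genes listed passed, against 10.8%.

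Within single conditions few genes passed. In HC25, ND-49, ND-13A and SdhA were called, 3 of 72 against 8.45% of all genes. In LC25 limma called 0 genes of the set, against 6.14% of all genes; 19 passed at an unadjusted p below 0.05, against 18.4%. In HC18, ND-MWFE and COX5B were called, against 5.52%. The fitted peaks of the 64 strongly expressed genes averaged ZT19.6 in HC25, ZT20.6 in LC25 and ZT0.3 in HC18. The HC18 peak was the later one in 63 of 64 genes, by a median of 4.52 h. Over the 2065 genes with a shared rhythm it was later in 1236, by a median of 0.60 h. No difference of rhythm between HC18 and HC25 passed the limma test in the set or among all genes, and 1 of the 64 genes had an unadjusted p below 0.05, against 3.65% of all genes. The shift was 1.74 h, with 49 of 64 genes later, after rescaling by the median ratio, and 2.44 h, with 61 genes later, when the 4 HC18 libraries low in fmt were left out. Without the HC25 library of ZT06 it was 3.36 h, with 56 genes later. In complex IV the shift of 4.63 h (8 of 8 genes later) became 0.47 h (5 of 8) without that library. It became 0.05 h (4 of 8) with the median ratio. The genes share their libraries, so the count is not one of independent observations. No difference of rhythm between LC25 and HC25 passed either, with 4.1% of all genes and 0 of the 64 at an unadjusted p below 0.05.

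Food had no detectable effect on the level of any subunit gene, although most values lay slightly lower on the poorer food. In time-matched comparison of LC25 with HC25, 0 of 72 genes and 0% of all genes passed in limma; at an unadjusted p below 0.05, 6 genes were lower and 0 higher, against 3.87% and 1.36% of all genes. The log2 difference was below 0 for 62 of 72 genes, against 56.9% of all genes. The median was -0.11, against -0.03 over all genes. After rescaling without mitochondrially encoded transcripts, Pdf, fmt and trol, 42 of 72 were below 0 (37.9% of all genes) and the median was -0.02, against 0.05 over all genes. The median by complex was -0.09 for complex I, -0.01 for II, -0.11 for III, -0.18 for IV and -0.14 for V; that rescaling turned the values of complexes I and II to 0.0017 and 0.08. The summed share was lower in LC25 in 10 of 12 time-matched pairs, at 2.02% ± 0.39 (SD, n = 12) against 2.25% ± 0.49 in HC25. COX7A had a log2 difference of -0.20 ± 0.10 SE (limma adjusted p = 0.95) and ATPsynbeta one of -0.28 ± 0.12 SE (limma adjusted p = 0.94). Summed fat body markers had a median of 30.8 TPM in HC25 (7.33 to 257) and 16.8 TPM in LC25 (6.16 to 108), and glial markers were high in 2 HC25 libraries; their part in the difference was not tested. Fewer LNv in a library and less RNA per LNv cannot be told apart in such samples.

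At 18 °C a few subunit genes changed, about as often as genes at large and in both directions, while the mitochondrial genome's own subunits fell together. Compared with HC25, 6 of 72 nuclear genes passed (8.33%), against 8.22% of all genes, with 3 higher (5.92% of all genes) and 3 lower (2.3%). With median-ratio rescaling, or with quantile normalization, 3 were higher and 6 lower. Lower calls among all genes also rose, from 199 to 525 with the median ratio and 449 with quantile normalization. Higher calls went from 512 to 553 and 594. The median log2 difference was 0.08, against 0.04 over all genes (0.0095 and -0.02 after rescaling by the median ratio), and the summed share was 2.31% ± 0.36 (SD, n = 12). Complex III held 3 of the 6.

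UQCR-11 had the largest fall of the 6. It ran from 282 to 514 TPM in HC25 (median 395), 208 to 508 TPM in LC25 (median 345) and 164 to 339 TPM in HC18 (median 285). HC18 was the higher one in 1 of 12 time-matched pairs, and the groups overlapped over the day. The log2 difference was -0.57 ± 0.12 SE (limma adjusted p = 0.0025), and it passed under all 50 alternatives, with adjusted p from 0.00077 to 0.034. UQCR-6.4, another small subunit of complex III, fell by 0.41 ± 0.13 SE (limma adjusted p = 0.044). ND-MLRQ, which ran from 493 to 1060 TPM in HC25 (median 688) and from 231 to 689 TPM in HC18 (median 602), fell by 0.44 ± 0.14 SE (limma adjusted p = 0.0496). Both had values of similar size in LC25, -0.37 and -0.44, which did not pass (limma adjusted p = 0.88); these comparisons share the HC25 libraries. ND-MLRQ and UQCR-6.4 were also among the genes lowest in the HC18 library of ZT10. The HC25 maximum of ND-MLRQ, 1060 TPM, was in the library of ZT06, where 42 of 64 genes had their HC25 minimum. Its next highest HC25 value was 895 TPM, at ZT18.

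The 3 genes that rose at 18 °C belong to 3 complexes. ND-20, the core subunit that holds the last iron-sulfur cluster before ubiquinone, ran from 75.4 to 207 TPM in HC25 (median 117), 78.2 to 235 TPM in LC25 (median 116) and 104 to 277 TPM in HC18 (median 170.5). It was higher in HC18 in 10 of 12 pairs, by a log2 difference of 0.48 ± 0.14 SE (limma adjusted p = 0.028). ATPsyndelta, in the rotating central stalk, had medians of 194, 183 and 276 TPM and rose by 0.48 ± 0.14 SE (limma adjusted p = 0.025). UQCR-Q, a small subunit of complex III, had medians of 455, 463 and 676 TPM and rose by 0.47 ± 0.15 SE (limma adjusted p = 0.045). Each was higher in HC18 in 10 of 12 pairs, and each had its HC18 maximum in a library low in fmt (ZT10 or ZT22).

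The 5 calls other than UQCR-11 were close to the threshold. ND-20 and ATPsyndelta lost the call without 6 single libraries each, UQCR-6.4 without 18, and ND-MLRQ and UQCR-Q without 23. Without the 4 HC18 libraries low in fmt, 1 of the 72 genes passed, while 71 of all 8649 genes were higher and 67 lower. Among the 72 genes the count fell to 1 without the HC25 library of ZT20 or the HC18 library of ZT04, ZT10 or ZT20. It was 2 without the HC25 library of ZT04 or ZT18, and 3 without the HC25 library of ZT14 or ZT16, the LC25 library of ZT14 or ZT20, or the HC18 library of ZT06, ZT14, ZT16 or ZT22.

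The subunits encoded in mitochondrial DNA behaved otherwise. Of these 13 genes, 11 were lower in HC18 than in HC25 in limma, all 13 values were below 0, and the median log2 difference was -0.86. Their summed share of TPM was 8.30% ± 3.03 (SD, n = 12) in HC18, compared with 14.04% ± 2.56 in HC25 and 13.9% ± 3.06 in LC25, and it was lower in HC18 in 12 of 12 pairs. Of complex I, mt:ND1 fell by 0.94 ± 0.22, mt:ND3 by 0.86 ± 0.23, mt:ND4 by 0.77 ± 0.17, mt:ND5 by 0.65 ± 0.17 and mt:ND6 by 1.49 ± 0.34 (log2 ± SE; limma adjusted p from 0.0054 to 0.017). The values of mt:ND2 and mt:ND4L were -0.80 and -1.02, with limma adjusted p of 0.065 and 0.091. mt:Cyt-b, the haem protein of complex III, fell by 0.97 ± 0.17 (limma adjusted p = 0.00049). The catalytic core of complex IV fell by 0.85 ± 0.17 for mt:CoI, 0.68 ± 0.14 for mt:CoII and 0.69 ± 0.14 for mt:CoIII (limma adjusted p from 0.0018 to 0.0031). In the membrane part of ATP synthase, mt:ATPase6 fell by 1.03 ± 0.16 (limma adjusted p = 0.0002) and mt:ATPase8 by 0.86 ± 0.21 (limma adjusted p = 0.0096).

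The ratio of summed nuclear to summed mitochondrial subunit TPM was 0.17 ± 0.06 in HC25, 0.15 ± 0.04 in LC25 and 0.34 ± 0.21 in HC18. The 11 calls held with every single library left out. When the 4 HC18 libraries low in fmt were left out, 2 of the 13 genes passed and the median log2 difference was -0.47. With quantile normalization 5 passed and it was -0.56. Among all 8649 genes, 71 were higher and 67 lower in the first setting, and 594 and 449 in the second. In those 4 libraries the mitochondrial share was 3.08% to 7.05%, against 6.86% to 13.3% in the other 8 HC18 libraries. The nuclear sum was 2.38% to 2.85% in the 4 libraries and 1.65% to 2.54% in the other 8. On the daily scale, 2 of the 13 mitochondrial genes were called for the shared rhythm, against 23.9% of all genes. These were mt:ND6 (2.67-fold, peak ZT21.9, limma adjusted p = 0.048) and mt:ATPase6 (1.55-fold, peak ZT21.8, limma adjusted p = 0.027). With every single time point left out in turn, mt:ND6 was called 5 of 12 times and mt:ATPase6 7 of 12.

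**Figure D5:**
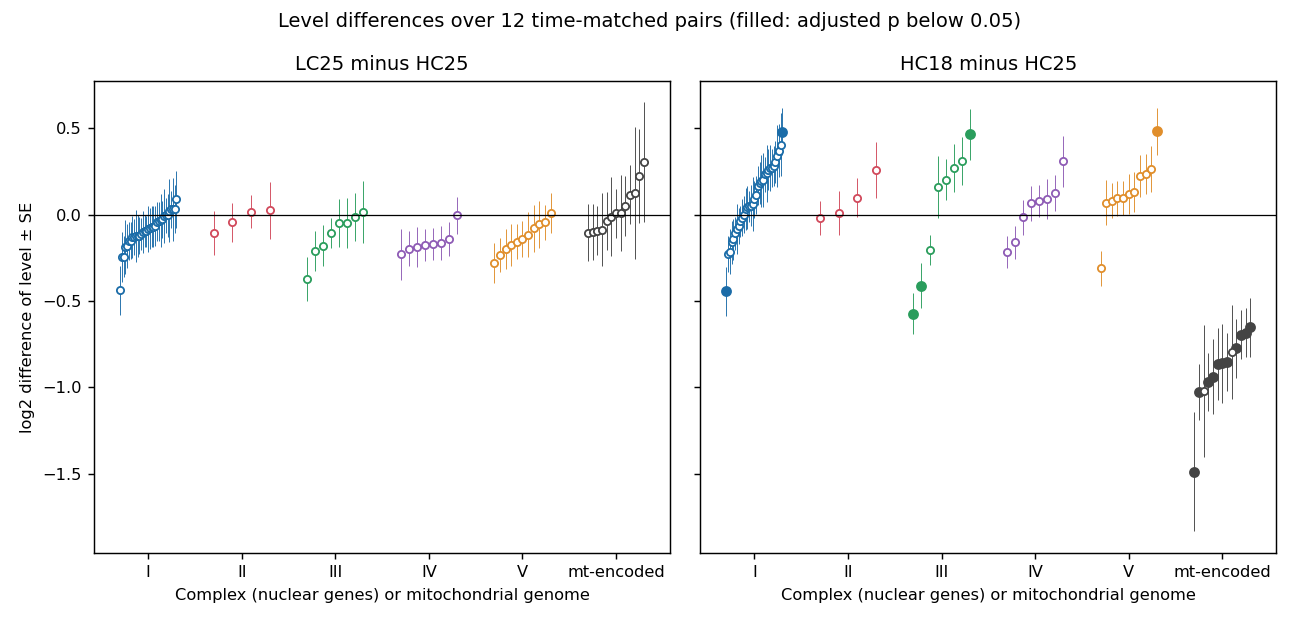
Difference of mean level in log2 (vertical axis, bars are SE) of LC25 (left) and HC18 (right) from HC25, for the 64 nuclear genes of 50 TPM or more by complex and for the 13 subunit genes of the mitochondrial genome. Filled points passed the adjusted p threshold: none in LC25, 6 nuclear and 11 mitochondrial genes in HC18.

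Of 14 assembly factors measured, 4 had a shared rhythm (28.6%, against 23.9% of all genes), with peaks from ZT16.9 to ZT20.7. Cox17, the copper chaperone of complex IV, spanned 2.81-fold with a peak at ZT19.2 (limma adjusted p = 4.2e-09). Bcs1, which inserts the Rieske protein into complex III, spanned 2.42-fold with a peak at ZT18.4 (limma adjusted p = 7.3e-06). Cox10, a step of haem A synthesis, spanned 1.66-fold with a peak at ZT20.7 (limma adjusted p = 0.00042). These 3 remained called without the ZT22 and ZT24 libraries. At 18 °C, 1 factor rose (5.92% of all genes did), Sirup, which serves the assembly of complex II (log2 difference 0.58 ± 0.16 SE, limma adjusted p = 0.021).

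The 15 genes listed for the citric acid cycle, which feeds complexes I and II, include pyruvate dehydrogenase genes (Pdha, Pdhb, muc) and NADP-dependent Idh. Of these 15 genes, 6 had a shared rhythm (40%, against 23.9% of all genes). All but 1 of them peaked from ZT18.9 to ZT23.6, among them Idh, the NADP-dependent isocitrate dehydrogenase, with a 2.42-fold span and a peak at ZT23.6 (limma adjusted p = 1.2e-05). Idh3b, of the NAD-dependent enzyme, spanned 1.50-fold with a peak at ZT18.9 (limma adjusted p = 3.9e-05). The other one was kdn, the citrate synthase, with a 2.38-fold span and a peak in the morning at ZT4.3 (limma adjusted p = 2.2e-07). At 18 °C, Idh rose by 0.63 ± 0.13 SE (limma adjusted p = 0.0021) and kdn fell by 0.51 ± 0.13 SE (limma adjusted p = 0.012), 1 of 15 in each direction against 5.92% higher and 2.3% lower over all genes.

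Of 7 carriers and channels that link the chain with the cytosol, 3 had a shared rhythm (42.9%, against 23.9% of all genes), with peaks from ZT24.0 to ZT5.1. Cyt-c-p, the somatic cytochrome c, peaked at ZT24.0 with a 1.52-fold span (limma adjusted p = 0.012). The ADP/ATP carrier sesB peaked at ZT2.8 with a 1.51-fold span (limma adjusted p = 0.00015), and the outer-membrane channel porin at ZT5.1 with a 1.50-fold span (limma adjusted p = 0.0035). Of 5 subunits whose names fall outside the symbol rule, 3 had a shared rhythm (60%, against 23.9% of all genes). These were sun, the epsilon subunit of ATP synthase (1.72-fold, peak ZT22.6, limma adjusted p = 0.00088), blw, its alpha subunit (1.42-fold, peak ZT23.4, limma adjusted p = 0.028), and ox, a small subunit of complex III (1.42-fold, peak ZT21.3, limma adjusted p = 0.037).

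Of 6 regulators of mitochondrial gene expression, 2 had a shared rhythm (33.3%, against 23.9% of all genes). One of them, srl, the fly homologue of PGC-1, spanned 2.22-fold and peaked at ZT12.3, while the subunits were near their low point (limma adjusted p = 0.00071). TFAM, which packages and transcribes mitochondrial DNA, spanned 1.55-fold and peaked at ZT19.6, with the subunits (limma adjusted p = 0.0028). The regulator mtTFB1 and the assembly factor Ccdc56 had identical values in every library and cannot be told apart.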

How the data were processed

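The authors deposited TPM per transcript, made with kallisto per the submitters' processing notes; its version, the transcript set, the genome build and strand use were not given in the sources used here. The authors also deposited BooteJTK tables with a Tau score, a phase and p-values per gene. TPM of 30246 of 30485 transcripts were summed to 13817 genes through the Ensembl 115 annotation, and no coordinates are given. Values were tested as log2(TPM + 1) in limma 3.58.1 (R 4.3.3, moderated tests with a trend) over the 8649 genes with a mean TPM of 1 or more, with Benjamini-Hochberg adjustment. Models were condition means with a 24 h cosine, shared or per condition, and condition with time point as a factor for levels. Folds are on the log2(TPM + 1) scale. The scripts were tested on simulated data. Samples were grouped by the condition label.

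The genes, the pathway lists and the settings were chosen with earlier results of these data known. Within each complex the text names the most abundant gene, the 3 of smallest p for the rhythm and the 2 of smallest p for each level comparison, further genes by their place in a pattern. Exons of 36 of the 72 genes overlap another gene (31 of them on the other strand), 14 of the 24 rhythmic ones included, and without stated strand use such reads may be shared. Among those described, this holds for ND-MNLL, ND-MWFE, ND-MLRQ, ND-13A, ND-18, ND-B8, SdhA, SdhB, SdhD, UQCR-Q, UQCR-14, UQCR-6.4, UQCR-C2, COX6B, COX5BL, ATPsynbeta, ATPsynC, ATPsynF and ATPsyndelta.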

Additional observations from a re-analysis of the deposited data

How the results depend on the processing

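The shared rhythm was called for 24 of 72 genes (2065 of all 8649). Rescaling by the median ratio gave 40 (1891 of all 8649). The authors' BooteJTK table of the 25 °C libraries gave 13 (863 of the 7991 genes listed). Left-out time points (chosen after seeing the data) gave 38 (ZT10), 10 (ZT22), 41 (ZT10 and ZT12), 15 (ZT14 and ZT16), 9 (ZT18 and ZT20) and 3 (ZT22 and ZT24). The shares of all genes called were then 23.1%, 22.9%, 22.5%, 15.8%, 15% and 20%, in that order. Counts within conditions moved as follows. With the median ratio LC25 had 18 calls and HC18 6. With quantile normalization HC25 had 1, LC25 15 and HC18 6. Rescaled without the mitochondrially encoded transcripts, Pdf, fmt and trol, HC25 had 7, LC25 1 and HC18 1. Without the HC25 library of ZT06, HC25 had 1 and LC25 2. Leaving out the 3 least-alike libraries left 0 in HC25, 2 in LC25 and 0 in HC18. Fitted alone, HC25 had 0 and HC18 4. HC18 had 0 with no filter on low values, with limma without a trend and without the 4 libraries low in fmt. Shares of all genes within conditions are not given for these settings, so these counts describe the set only. The level count for HC18 was 9 with the median ratio and with quantile normalization (3 higher, 6 lower), 7 without the 3 least-alike libraries and 7 without HC25 ZT06 alone, 3 with no filter, 3 without a trend, 2 with the rescaling that leaves transcripts out, 1 without the 4 libraries low in fmt and 1 with no time term. Over all genes, the higher and lower calls in these settings were 553 and 525, 594 and 449, 483 and 492, and 393 and 371. For the remaining settings, in the same order, they were 382 and 163, 437 and 186, 295 and 173, 71 and 67, and 299 and 123. The causes were not tested.

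With single libraries left out in turn, the counts ranged from 17 to 31 for the shared rhythm, 0 to 4 in HC25, 0 to 2 in LC25, 0 to 3 in HC18 and 1 to 9 for the HC18 level. The median member difference ranged from -0.16 to -0.07 in LC25 and from 0.03 to 0.12 in HC18. Outside these ranges it was -0.02 in LC25 with the rescaling that leaves transcripts out, and in HC18 0.0095 with the median ratio and 0.0096 without the 4 libraries low in fmt. Medians of single complexes near 0 changed sign: in LC25 complex I (0.0017) and II (0.08) with the rescaling that leaves transcripts out, and in HC18 complex II (-0.02) and IV (-0.08) with the median ratio and in some other settings. The 6 nuclear genes called at 18 °C kept their direction under all 50 alternatives. No paired analysis by replicate number was possible because the labels number no replicates; the level fit pairs libraries by time point. With 1 library per time and condition and TPM without counts, small changes at single times cannot be resolved.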
